A study of Homo sapiens with 6 samples.

Results

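Kinesins are motor proteins that hydrolyse ATP to walk along microtubules or to shorten them. Some carry vesicles, lysosomes, mitochondria and RNA through the interphase cell, while others assemble the mitotic spindle, align chromosomes and complete cytokinesis. The genes of mitotic kinesins are transcribed mostly in dividing cells, and several of their products are drug targets in cancer. The family was examined here in BT-549, an established human cell line from a triple-negative breast cancer, of mesenchymal type, after silencing of IRF1, a transcription factor of the interferon response. Members were taken by gene symbol (KIF, a number and at most one letter with a further digit), which gave 39 of the 37887 symbols in the count table and left out the adaptor KIFAP3, pseudogenes and kinesins with other names, such as CENPE and the KIFC genes. They were sorted by known role into 14 mitotic kinesins, 13 transport kinesins, 6 kinesins of cilia and 6 others.

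RNA-seq libraries came from 3 control and 3 IRF1shRNA samples of this line, given 0.1% DMSO or 500 ng/ml doxycycline, respectively. By their titles the DMSO samples carry a control shRNA, whereas the series description names a single line with an inducible IRF1 shRNA, and the labels give no duration of treatment. Doxycycline was given only to the IRF1shRNA group, so its effects and those of IRF1 silencing cannot be told apart. Total counts ranged from 55143808 in IRF1shRNA replicate 2 to 160436234. IRF1 itself stood at 45.3, 48.1 and 51.5 CPM (TMM-scaled reads relative to library depth) in the controls against 13.8, 14.9 and 14.6 CPM after silencing. The groups were far apart, and the mean ± SD (n = 3 each) fell from 48.3 ± 3.14 to 14.4 ± 0.601 CPM (log2 fold change −1.74 ± 0.06, adjusted p 4.53e-13, edgeR). The cells expressed the mesenchymal marker VIM at 918 ± 28.6 CPM in control, with CDH1 at 0.676 CPM, PGR at 0.244 CPM and ESR1 at 0.0163 CPM. This ESR1 mean is below the level of 3 counts in each control library. ESR1 had 4, 2 and 0 counts in the controls and 11, 8 and 12 in IRF1shRNA samples, and was not tested. ERBB2 was at 50.8 ± 3.67 CPM.

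Transcripts of 37 kinesin genes were detected in at least 1 library, and 35 passed the filter on low counts. Kinesin genes differed between the groups in both directions. In edgeR's quasi-likelihood test, with 0.05 as the limit on adjusted p, 10 of the 35 genes were higher and 10 lower in IRF1shRNA cells. Among all genes the test called 50.5%, with 24.1% higher and 26.4% lower. Among genes averaging 1 CPM or more, as most tested kinesins did, 29.3% were higher and 34.2% lower. The shares of kinesins called (28.6% in each direction) were thus near the background. Control and IRF1shRNA values were fully separate for 22 of the 35 kinesins, or 62.9%, against 56.8% of all genes. The largest decreases among abundant members were those of KIF5B, KIF20B, KIF3C and KIF15, which fell to between 53.6% and 75.6% of control. No member fell by over 2-fold, where 4.43% of all genes did so, and 2 scarce members, KIF12 and KIF25, rose by over 2-fold, where 3.43% of all genes did so.

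**Figure D1:**
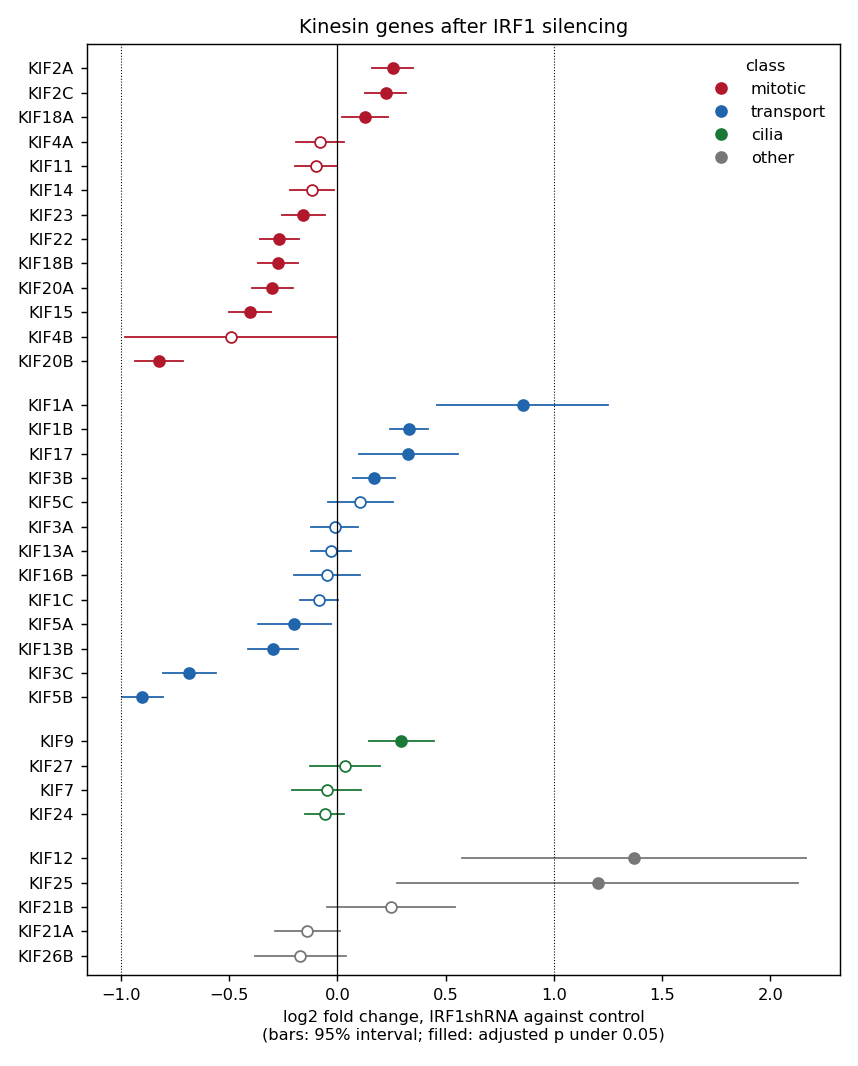
Log2 fold change of the 35 kinesin genes tested (x axis; IRF1shRNA against control, n = 3 each) by class, with 95% intervals; filled points had an adjusted p under 0.05 in edgeR's test and dotted lines mark 2-fold. KIF5B (−0.90) and KIF20B (−0.82) lie farthest to the left, and KIF12 (1.37) and KIF25 (1.20) farthest to the right with wide intervals.

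Levels were compared between members per kilobase of annotated exon, since long transcripts give more reads. In control cells KIF5B was the most abundant kinesin at 81.8 ± 3.22 CPM per kb, followed by KIF20A at 70.2 ± 1.13, KIF2C at 53.6 ± 1.39, KIF11 at 46.5 ± 1.68 and KIF1C at 39.7 ± 1.22 CPM per kb. In IRF1shRNA cells KIF2C led at 62.5 ± 3.20 CPM per kb, with KIF20A at 57.1 ± 2.72, and KIF5B was at 43.8 ± 1.71 CPM per kb, within the spread of KIF11 at 43.4 ± 1.92. At the other end, KIF2B and KIF19 had no count in any library, KIF6 had 4 counts in a single library and KIF26A had 0 to 18 counts per library. These 4 genes did not pass the filter and were not tested. If each count is taken as a separate read, a count of 0 in a library allows a level of up to 0.0182 to 0.0540 CPM, depending on its depth. Most small counts were even, so these limits may be too low.

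**Figure D2:**
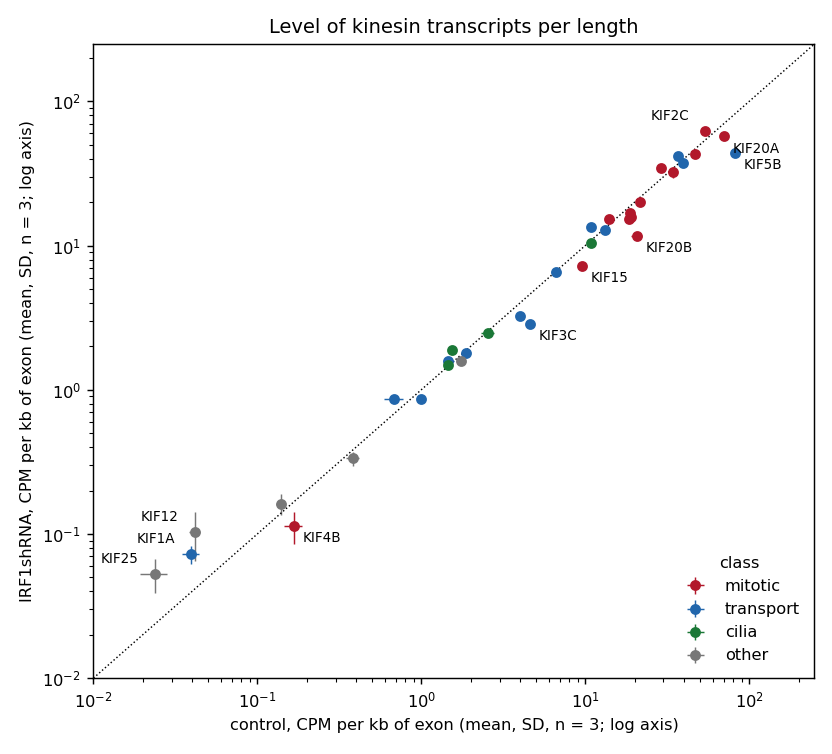
Level of each tested kinesin in control (x axis) and IRF1shRNA cells (y axis), in CPM per kb of exon on log axes, as mean with SD (n = 3 each), coloured by class; the dotted line marks equal levels. KIF5B, KIF20B, KIF3C and KIF15 lie below the line, and KIF2C, the most abundant kinesin in IRF1shRNA cells, above it.

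Mitotic kinesins were examined first. Of 14 members 13 were tested, of which 6 were lower (46.2%), 3 higher (23.1%) and 4 not called. Of all genes averaging 1 CPM or more, as all of these but KIF4B did, 34.2% were lower and 29.3% higher. The lower members were the motors KIF20B, KIF15, KIF20A, KIF18B, KIF22 and KIF23, and the higher ones were KIF2A, KIF2C and KIF18A. In these bulk samples fewer dividing cells and less transcript per cell cannot be told apart.

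The kinesin-6 motors of the central spindle were all lower. KIF20B (MPHOSPH1), a motor required for the completion of cytokinesis, had 151, 142 and 129 CPM in the 3 controls against 79.4, 81.9 and 77.6 CPM in the 3 IRF1shRNA samples. Every IRF1shRNA sample was thus below every control, with a log2 fold change of −0.82 ± 0.05 (SE) and an adjusted p of 7.72e-10 by edgeR's test. KIF20A (MKLP2), which relocates the chromosomal passenger complex to the central spindle at anaphase, was at 273, 279 and 282 CPM in control and 215, 237 and 226 CPM in IRF1shRNA samples. The groups did not overlap, and the log2 fold change was −0.30 ± 0.04 (adjusted p 1.84e-05, edgeR). KIF23 (MKLP1), the motor of the centralspindlin complex, was at 125, 124 and 119 CPM in control and 106, 118 and 107 CPM in IRF1shRNA samples. In this case the highest IRF1shRNA sample came within 1 CPM of the lowest control. Its log2 fold change of −0.16 ± 0.05 (adjusted p 0.0108, edgeR) lost its call under 5 of 14 alternatives, among them the fits without control replicate 2 and without IRF1shRNA replicate 1 or 3.

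The bipolar spindle is built by KIF11 (Eg5), the target of several spindle inhibitors, and KIF15, which can take over part of its work. KIF15 was at 49.9, 51.0 and 49.9 CPM in control and 36.9, 39.2 and 37.9 CPM in IRF1shRNA samples. These values left a wide gap between the groups (log2 fold change −0.41 ± 0.05, adjusted p 1.04e-06, edgeR). KIF11 was at 230, 231 and 217 CPM in control and 214, 219 and 201 CPM in IRF1shRNA samples, and the groups overlapped. Its log2 fold change of −0.10 had a 95% interval of −0.20 to −0.0038 and an adjusted p of 0.0789 by the edgeR test, which became 0.0312 without control replicate 3 and 0.0409 without IRF1shRNA replicate 2.

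Among chromosome-bound kinesins, KIF22 (Kid), which pushes chromosome arms away from the poles, was at 78.9, 81.0 and 84.6 CPM in control and 66.9, 66.8 and 69.3 CPM in IRF1shRNA samples. It fell clear of the controls (log2 fold change −0.27 ± 0.04, adjusted p 4.84e-05, edgeR), with 13.0% of its exon length shared with an antisense gene. KIF4A, a chromokinesin that limits the growth of midzone microtubules, was at 152, 158 and 153 CPM in control and 135, 159 and 144 CPM in IRF1shRNA samples. The highest of these 6 values was that of IRF1shRNA replicate 2, the most shallowly sequenced library, and the log2 fold change of −0.08 was not called (95% interval −0.19 to 0.03), although it passed without that library (−0.14, adjusted p 0.0222, edgeR). KIF14, a partner of citron kinase in cytokinesis, was likewise not called at −0.12 (adjusted p 0.0556, edgeR) and passed without IRF1shRNA replicate 2 (−0.15, adjusted p 0.0166) or control replicate 3 (−0.15, adjusted p 0.0110). KIF4B, an intronless copy of KIF4A, was at 0.360 to 0.819 CPM over the 6 libraries, with 14.0% of its 50-base windows identical to KIF4A, so its reads may be shared and its log2 fold change of −0.49 was not called.

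The microtubule depolymerases KIF2C and KIF2A moved the other way. KIF2C (MCAK), which removes faulty attachments of microtubules at centromeres, was at 190, 196 and 200 CPM in control and 223, 241 and 220 CPM in IRF1shRNA samples. KIF2A, its relative at spindle poles, was at 140, 139 and 135 CPM in control and 159, 175 and 161 CPM in IRF1shRNA samples. Both sets of groups were separate, with log2 fold changes of 0.22 ± 0.05 for KIF2C (adjusted p 0.000502, edgeR) and 0.26 ± 0.05 for KIF2A (adjusted p 0.000126, edgeR), and both calls held under each of the 14 alternatives. KIF2A shares 428 exon bases with IPO11 on the same strand, or 8.97% of its exon length, so a part of its reads may be ambiguous.

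The kinesin-8 motors, which walk to microtubule plus ends and dampen their growth, parted. KIF18B was at 84.5, 86.7 and 88.4 CPM in control and 71.4, 68.5 and 74.5 CPM in IRF1shRNA samples. KIF18A, which restrains chromosome movements at metaphase, was at 68.0, 66.2 and 61.7 CPM in control and 68.7, 76.2 and 69.1 CPM in IRF1shRNA samples. KIF18B fell clearly (log2 fold change −0.27 ± 0.04, adjusted p 4.48e-05, edgeR), while the KIF18A groups were less than 1 CPM apart at their nearest. The KIF18A log2 fold change of 0.13 ± 0.05 (adjusted p 0.0470, edgeR) lost its call with no filter and without control replicate 2 or 3 or IRF1shRNA replicate 2 or 3, where its adjusted p was 0.0512 to 0.181.

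The 13 mitotic kinesins tested had a median log2 fold change of −0.16, against −0.0024 for all genes tested. Their summed level was 1709, 1716 and 1668 CPM in control and 1515, 1636 and 1531 CPM in IRF1shRNA samples, or 91.9% of control. IRF1shRNA replicate 2 had the highest value of its group for 10 of the 13 genes, and also for 8 of the 13 transport kinesins. Without this library 9 mitotic kinesins were lower and 2 higher, and their median was −0.20.

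**Figure D3:**
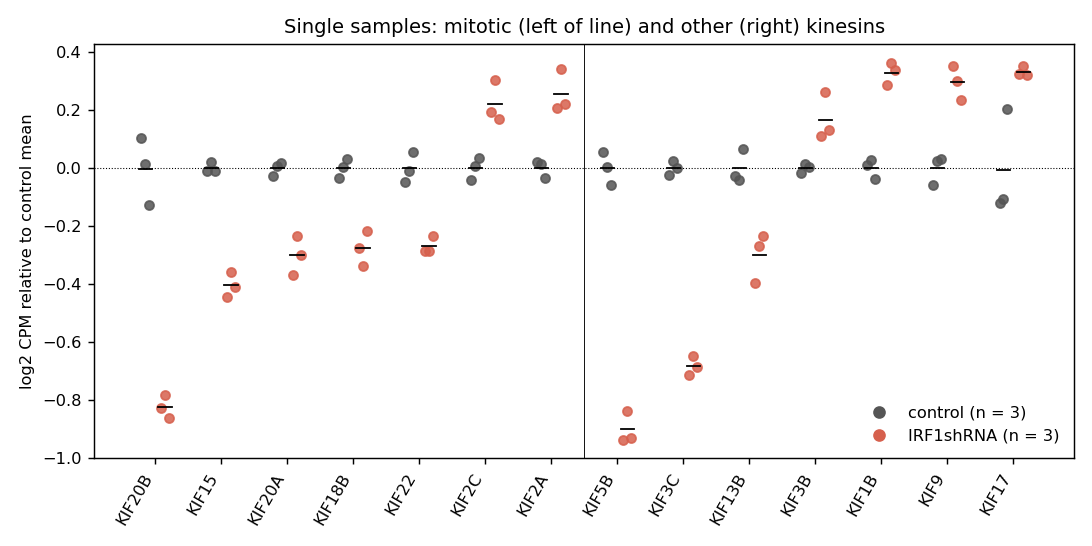
Log2 CPM of each sample relative to the mean of the controls (y axis) for 7 mitotic kinesins (left of the vertical line) and 7 other kinesins (right); grey points are the 3 controls, red points the 3 IRF1shRNA samples and bars the mean of the log2 values. Red points lie below all grey points for KIF20B, KIF15, KIF20A, KIF18B, KIF22, KIF5B, KIF3C and KIF13B, and above them for the other 6 genes.

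The transport kinesins were then compared. All 13 were tested, with 4 lower and 4 higher (30.8% each) and 5 not called, and their median log2 fold change was −0.03. These shares were near those of all genes averaging 1 CPM or more (34.2% lower and 29.3% higher). The difference of the class medians, mitotic minus transport, was −0.13. Set against the mean of the controls, that difference was −0.24, −0.01 and −0.19 in IRF1shRNA replicates 1 to 3, so it was near 0 in the shallowest library. The summed level of transport kinesins was 1545, 1556 and 1521 CPM in control and 1326, 1384 and 1350 CPM in IRF1shRNA samples, or 87.8% of control, and the mean of KIF5B alone fell by more CPM than the whole class.

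KIF5B, the ubiquitous heavy chain of kinesin-1 and the main motor for outward movement of lysosomes and mitochondria, lies at chr10:32009010-32056431 on the minus strand (GRCh38, GENCODE 29). The 3 controls had 499, 481 and 461 CPM, against 251, 269 and 252 CPM in the 3 IRF1shRNA samples. All 3 IRF1shRNA samples were far below the lowest control, and the mean fell to 53.6% of control. This was −0.90 ± 0.05 on the log2 scale (adjusted p 4.05e-11, edgeR), and the value stayed between −0.93 and −0.85 under the 14 alternatives. The neuronal heavy chains were scarce in both groups. KIF5A went from 6.19 ± 0.247 to 5.39 ± 0.0642 CPM, and its call (log2 fold change −0.20, adjusted p 0.0471, edgeR) was lost under all 14 alternatives, with adjusted p-values from 0.0527 to 0.176. KIF5C was at 13.5 ± 1.04 and 14.5 ± 0.265 CPM, a log2 fold change of 0.11 that was not called (95% interval −0.04 to 0.26). The summed kinesin-1 heavy chain level was 80.8 to 87.3 CPM per kb in control and 45.2 to 48.2 CPM per kb in IRF1shRNA samples, of which KIF5B made up 96.9% to 97.3% and 94.6% to 94.9%.

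Kinesin-2 is a heterotrimer of KIF3A with KIF3B or KIF3C and the adaptor KIFAP3, and serves both cargo transport and the building of cilia. KIF3C was at 28.8, 29.8 and 29.3 CPM in control and 17.9, 18.7 and 18.2 CPM in IRF1shRNA samples. Spread within each group was under 1 CPM, and the mean fell to 62.3% of control (log2 fold change −0.68 ± 0.06, adjusted p 2.49e-08, edgeR). KIF3B was at 223, 227 and 226 CPM in control and 243, 270 and 246 CPM in IRF1shRNA samples, with a log2 fold change of 0.17 ± 0.05 (adjusted p 0.00497, edgeR). KIF3A, the subunit common to both motors, was at 45.6 ± 2.86 and 45.1 ± 1.08 CPM, a log2 fold change of −0.01 with a 95% interval of −0.12 to 0.10. KIF3B was thus higher and KIF3C lower, on a scale where KIF3B was already the more abundant partner at 36.9 CPM per kb against 4.58 for KIF3C in control. KIF17, the homodimeric kinesin-2, was at 2.82, 2.84 and 3.53 CPM in control and 3.83, 3.91 and 3.82 CPM in IRF1shRNA samples. The groups were separate, but the log2 fold change of 0.33 ± 0.11 (adjusted p 0.0173, edgeR) lost the call without control replicate 1 (adjusted p 0.0743) or control replicate 2 (adjusted p 0.0842).

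Kinesin-3 motors carry vesicle precursors and endosomes. KIF1B was at 192, 194 and 186 CPM in control and 232, 245 and 241 CPM in IRF1shRNA samples, with a log2 fold change of 0.33 ± 0.04 (adjusted p 3.49e-06, edgeR). KIF1A, mainly a neuronal motor, was scarce, at 0.746, 0.588 and 0.637 CPM in control and 1.09, 1.41 and 1.13 CPM in IRF1shRNA samples, and also rose (log2 fold change 0.86 ± 0.19, adjusted p 0.000954, edgeR). KIF1C, the most abundant of this group, was at 328, 347 and 347 CPM in control and 325, 313 and 325 CPM in IRF1shRNA samples. Its groups were separated by a few CPM and its log2 fold change of −0.09 was not called (95% interval −0.17 to 0.0037). KIF13B (GAKIN) was at 43.8, 43.4 and 46.7 CPM in control and 33.9, 37.0 and 37.9 CPM in IRF1shRNA samples, and fell with a log2 fold change of −0.30 ± 0.05 (adjusted p 0.000172, edgeR). Its relative KIF13A, at 146 ± 2.37 and 143 ± 6.81 CPM, was not called (−0.03, 95% interval −0.12 to 0.06), and neither was the endosomal KIF16B, at 14.4 ± 0.859 and 13.9 ± 0.893 CPM (−0.05, 95% interval −0.20 to 0.10).

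The kinesins of cilia and the remaining members came last. Among kinesins of cilia, KIF9 was at 8.58, 9.10 and 9.14 CPM in control and 11.4, 11.0 and 10.5 CPM in IRF1shRNA samples, a log2 fold change of 0.30 ± 0.07 (adjusted p 0.00215, edgeR). It shares 870 exon bases, 14.9% of its exon length, with KIF9-AS1 on the opposite strand, and whether counting used strand is not given in the sources used here. KIF7, which scaffolds Hedgehog signalling at the ciliary tip, KIF24, which restrains cilium assembly, and KIF27 were not called, with log2 fold changes of −0.05, −0.06 and 0.03. Of the other members KIF21A, KIF21B and KIF26B were not called either (−0.14, 0.25 and −0.17). KIF12 had 16, 14 and 20 counts in control and 50, 10 and 60 in IRF1shRNA samples, and KIF25 had 12, 10 and 10 against 21, 8 and 39. Scaled for depth these were 0.114 to 0.134 and 0.180 to 0.397 CPM for KIF12 (log2 fold change 1.37 ± 0.38, adjusted p 0.00559, edgeR) and 0.0671 to 0.0974 and 0.144 to 0.237 CPM for KIF25 (1.20 ± 0.44, adjusted p 0.0300, edgeR). The KIF25 call was lost under DESeq2 (adjusted p 0.0614), with the replicate block (0.0599), with no filter (0.0798) and without control replicate 2 (0.0762) or 3 (0.106) or IRF1shRNA replicate 1 (0.0549) or 3 (0.191). Neither gene was tested when at least 1 CPM was required in at least 3 samples, and KIF25 was not tested with halved counts either.

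Genes that work with kinesins were counted next, from lists of 5 further kinesins, 18 light chains and cargo adaptors, 26 spindle and cytokinesis genes, 21 subunits of dynein and dynactin and 18 Hedgehog and intraflagellar transport genes. Of the 26 spindle and cytokinesis genes 15 were lower and 0 higher at an adjusted p under 0.05, or 2 and 3 higher under upper quartile scaling and library size only. At an unadjusted p under 0.05 the count of higher genes was also 0 by edgeR, and DESeq2 called 0 higher as well. The median log2 fold change of the list was −0.19. Of all genes averaging 1 CPM or more, 34.2% fell and 29.3% rose, while 2 of the listed genes, PRC1 (1.55 CPM in control) and NUSAP1 (0.491 CPM), were scarce. First by adjusted p came CDK1, the kinase that starts mitosis (−0.71 ± 0.05), PLK1, which KIF20A brings to the central spindle (−0.59 ± 0.04), and AURKB, the kinase of the chromosomal passenger complex (−0.45 ± 0.04). Of the 5 kinesins outside the symbol rule 2 were higher and 3 lower, the latter count ranging from 1 to 3 when each replicate was left out. Only 2 were lower under DESeq2, each other scaling or filter, the replicate block and halved counts. CENPE (kinesin-7), which moves chromosomes to the spindle equator, rose from 155 ± 13.6 to 188 ± 10.6 CPM (0.28 ± 0.06). KIFC3, a minus-end motor of junctions and the Golgi, rose from 30.5 ± 0.954 to 52.0 ± 2.44 CPM (0.77 ± 0.05), while KIFC2 fell from 21.5 ± 1.98 to 17.0 ± 2.36 CPM (−0.33 ± 0.09). KIFC1 (−0.26), whose groups overlapped, and STARD9 (−0.16) were lower as well.

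Light chains and adaptors link kinesins to their cargo, and 5 of 18 were higher, 6 lower and 7 not called. Of all genes averaging 1 CPM or more, 29.3% were higher and 34.2% lower, so these counts were near the background. The same shares are the background for the lists that follow. MAPK8IP2, a scaffold of the JIP family, fell from 16.6 ± 1.71 to 6.87 ± 0.976 CPM (−1.27 ± 0.10). KLC4 rose from 8.76 ± 0.860 to 17.6 ± 1.13 CPM (1.01 ± 0.08), whereas the abundant light chains KLC1 and KLC2, at 34.2 ± 0.934 and 58.9 ± 2.16 CPM in control, were not called (−0.07 and −0.05). The kinesin-2 adaptor KIFAP3 rose from 31.7 ± 0.832 to 39.5 ± 3.08 CPM (0.31 ± 0.06). Dynein, the motor of the opposite direction, had 9 of 21 genes higher and 6 lower, with DYNC1I2 (−0.84 ± 0.05), BICD2 (−0.59 ± 0.04) and DCTN5 (0.39 ± 0.04) at the smallest adjusted p-values. The higher genes included the scarce DYNC1I1, with 10, 6 and 8 counts in control and 50, 1 and 38 in IRF1shRNA samples. Its groups overlapped. The list of intraflagellar transport and Hedgehog genes, in which kinesin-2 and KIF7 act, had 10 of 16 tested genes higher and 4 lower. Its called members parted by role. All 10 higher genes encode intraflagellar transport proteins, among them IFT122 (0.80 ± 0.04) and IFT20 (0.70 ± 0.07). The 4 lower genes belong to Hedgehog signalling, namely SUFU (−0.68 ± 0.06), which holds GLI factors in check, the transcription factors GLI1 (−1.18 ± 0.16) and GLI3 (−0.23 ± 0.05), and the receptor PTCH1 (−0.35 ± 0.07). SMO was not called (0.04).

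**Figure D4:**
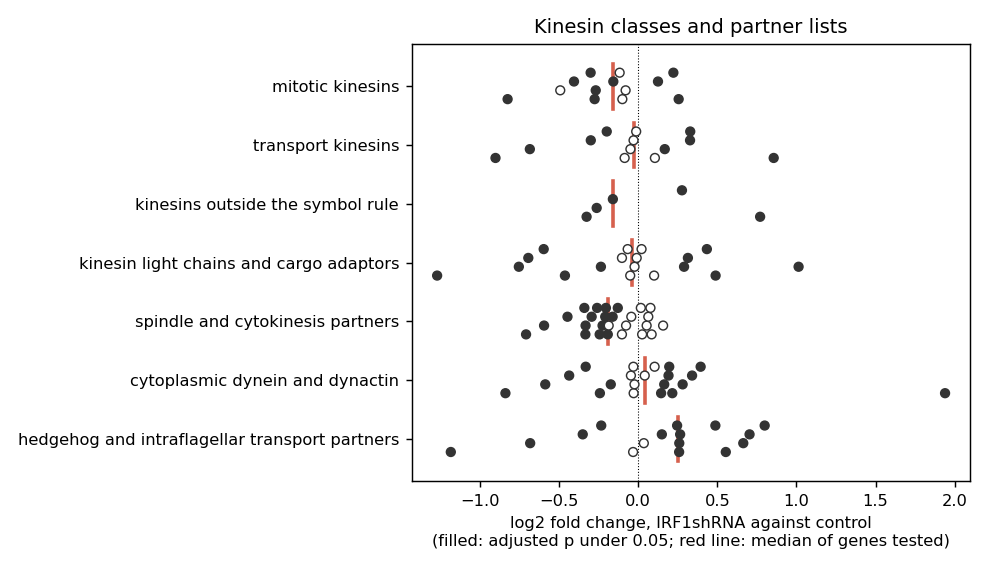
Log2 fold change of each tested gene (x axis) in the mitotic and transport kinesins and 5 partner lists; filled points had an adjusted p under 0.05 in edgeR's test and red lines mark medians. Medians lie at −0.16 for mitotic and −0.03 for transport kinesins, at −0.19 for spindle and cytokinesis partners and at 0.25 for Hedgehog and intraflagellar transport partners.

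Promoter sequences were examined for letters shared by members that moved together. RefSeq windows of 250 bases before to 50 bases after the start (GRCh38.p14) were given for 33 of the 39 genes. They were searched on both strands for TTTGAA, the cell cycle genes homology region of many G2/M promoters, for CCAAT, the NF-Y box, and for the core of interferon response elements, GAAA repeated after any 2 bases. TTTGAA can share bases with the last of these, but no member held both. TTTGAA was present for 9 of 14 mitotic kinesins, 1 of 11 transport kinesins (KIF5B) and 0 of 8 of the rest, against 12.4% of all windows of protein-coding genes. CCAAT was present for 10 of 14 mitotic and 4 of 11 transport kinesins, against 34.7%. The interferon response core was present for 0 of 14 mitotic and 1 of 11 transport kinesins (KIF1A), against 3.17%. For 7 of the 33 genes several windows were given, and a match in any of them counted. The shares over protein-coding genes are of single windows, so genes with several windows had more room for a match. Within the mitotic class TTTGAA was present for 4 lower genes (KIF20B, KIF15, KIF18B and KIF23) and for KIF18A, which was higher. It was also present for 4 genes that were not called (KIF4A, KIF4B, KIF11 and KIF14), all with negative estimates. It was not found for the lower KIF20A and KIF22 or the higher KIF2A and KIF2C. Whether TTTGAA goes with direction was not tested, and these genes are few. The 120 bases upstream of the start are shown for the 4 genes that fell most, for KIF18A as a mitotic gene with both boxes that did not fall and for KIF2C as one with neither, all 5′ to 3′ on the strand of the gene. Capitals mark TTTGAA and CCAAT or their reverse complements. The starts are those of RefSeq. By GENCODE 29 positions the stretches of KIF3C and KIF18A lie wholly within the gene, and those of KIF15, KIF5B and KIF2C in part. A match is a description of letters, not of binding. The TTTGAA matches of KIF20B lie after the start, at positions 25 and 31, and that of KIF5B lies at position −140, so they are outside these stretches.
KIF20B, chr10:89701470-89701589, plus strand: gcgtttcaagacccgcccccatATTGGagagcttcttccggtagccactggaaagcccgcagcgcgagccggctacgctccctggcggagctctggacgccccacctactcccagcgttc
KIF15, chr3:44761674-44761793, plus strand: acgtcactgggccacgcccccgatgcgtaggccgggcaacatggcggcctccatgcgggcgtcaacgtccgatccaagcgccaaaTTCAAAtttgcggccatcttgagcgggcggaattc
KIF18A, chr11:28108157-28108276, minus strand: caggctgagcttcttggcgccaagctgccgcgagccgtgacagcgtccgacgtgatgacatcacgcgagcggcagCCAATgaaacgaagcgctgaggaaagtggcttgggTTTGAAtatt
KIF2C, chr1:44739717-44739836, plus strand: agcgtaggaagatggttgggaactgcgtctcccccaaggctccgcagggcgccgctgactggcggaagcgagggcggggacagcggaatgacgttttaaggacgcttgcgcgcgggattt
KIF5B, chr10:32056426-32056545, minus strand: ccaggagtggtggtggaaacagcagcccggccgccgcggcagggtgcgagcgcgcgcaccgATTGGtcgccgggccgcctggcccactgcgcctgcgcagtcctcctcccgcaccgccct
KIF3C, chr2:25982498-25982617, minus strand: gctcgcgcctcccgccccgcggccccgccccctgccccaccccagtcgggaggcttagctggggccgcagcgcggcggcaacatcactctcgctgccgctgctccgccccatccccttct

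The chromosomal surroundings of the 4 kinesins that fell most were also examined, a comparison added after their values were seen. KIF20B lies at chr10:89701610-89774939 (GRCh38, GENCODE 29), and all 7 tested protein-coding genes within 500 kb of it were lower. They included PANK1 (log2 fold change −0.34 ± 0.08) at 56.0 kb, LIPA (−0.57 ± 0.04) at 287 kb and the interferon-induced IFIT cluster, with IFIT5 (−2.75 ± 0.08) at 281 kb, IFIT1 (−3.59 ± 0.14) at 295 kb, IFIT3 (−3.66 ± 0.11) at 361 kb and IFIT2 (−2.77 ± 0.11) at 392 kb. IFIT3 fell from 77.2 ± 14.1 to 6.16 ± 0.716 CPM. The cluster also holds IFIT1B (−3.56 ± 0.43), which was scarce at 0.516 CPM in control. Most of the 7 neighbours belong to this cluster of related genes, so they are not 7 independent observations. The other 3 kinesins had mixed neighbours, with 1 of 4 genes higher and 1 lower around KIF5B, 3 of 9 higher and 1 lower around KIF3C, and 4 of 16 higher and 5 lower around KIF15. Of all genes tested, 24.1% were higher and 26.4% lower.

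**Figure D5:**
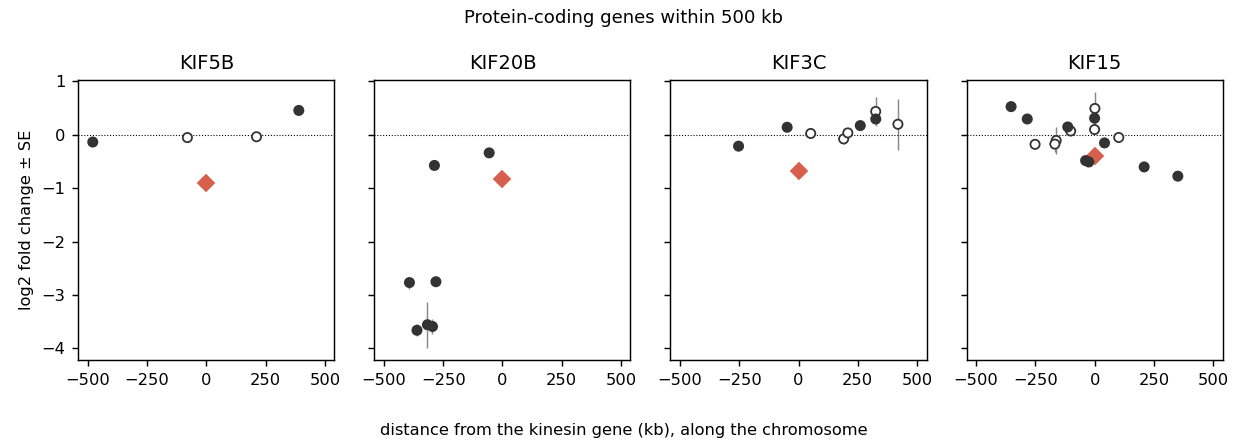
Log2 fold change ± SE of tested protein-coding genes (y axis) by distance in kb (x axis) from each of the 4 kinesins that fell most, which are drawn as red diamonds at 0; filled points had an adjusted p under 0.05 in edgeR's test. The 5 IFIT genes stand at −3.66 to −2.75 to the left of KIF20B, while points around KIF5B, KIF3C and KIF15 lie on both sides of 0.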

How the data were processed

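RNA-seq libraries (TruSeq Stranded mRNA, per the labels) of 3 control and 3 IRF1shRNA samples were analysed from raw counts per gene symbol, which the authors deposited with no normalization. The submitters' processing notes name CASAVA 1.8.2, STAR 2.7.9a, featureCounts, DESeq2 1.24.0 and GRCh38.p7. The annotation release and the strand setting are not given in the sources used here, so counts of overlapping genes are uncertain. Between 72.1% and 75.2% of values from 2 to 11 were even, which is why halved counts were also run.

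All genes were fitted with edgeR 4.0.16 (R 4.3.3; quasi-likelihood test, TMM, filterByExpr with a minimum count of 10), with group as the only factor and Benjamini-Hochberg adjustment over 18851 genes. The script was tested on simulated data. CPM values are TMM-scaled. The SE is the size of the log2 fold change divided by the square root of F, and floors of 3 counts cover counting error only. Alternatives were DESeq2 1.42.0, other scalings and filters, halved counts, a replicate block, each replicate left out, a threshold of 0.01 and another assignment of KIF2A, KIF21A and KIF21B. Protein sequences were not used here. Exon lengths and positions came from GENCODE 29 (GRCh38). The members, classes, partner lists and tests were chosen with earlier results of these data known. Per-sample values were given for up to 8 members with the largest called change in each direction at a mean of at least 1 CPM, those past 2-fold and the 3 most abundant, and the 3 smallest adjusted p-values were named per partner list, apart from a gene that is not reported here. Others named were chosen for their role after their values were seen. Replicates of a group differed by more than sampling noise (chi-square per degree of freedom of halved counts 5.67 to 13.9), and the labels and the study's methods describe them as triplicate cultures, with no statement on whether these were grown on separate occasions. The p-values measure the spread between such cultures.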

Additional observations from a re-analysis of the deposited data

How the results depend on the processing

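The counts of kinesins called, in the family and in both classes, stayed within 1.5 times of the reported values under every alternative run, apart from kinesins higher over 2-fold. These numbered 2, and 1 under DESeq2, with no filter, with halved counts and with the replicate block, 0 when at least 1 CPM was required in at least 3 samples, and 1 to 2 when each replicate was left out. The median of transport kinesins, −0.03, reversed to 0.015 under upper quartile scaling and 0.022 under library size only, which raised the median of all genes to 0.041 and 0.049, and it ranged from −0.060 to −0.0014 over fits without 1 replicate. Under these scalings and without 1 replicate KIF3A, KIF13A, KIF16B and KIF7, none of them called, also changed sign, to 0.031 (KIF3A) and 0.015 (KIF13A) under upper quartile scaling, to 0.038 (KIF3A), 0.022 (KIF13A), 0.0019 (KIF16B) and 0.0018 (KIF7) under library size only, to 0.012 (KIF3A) under the filter of 1 CPM, and, without 1 replicate, over ranges of −0.060 to 0.022 for KIF3A, −0.050 to 0.0086 for KIF13A and −0.096 to 0.029 for KIF7. Spindle partners called higher, 0 as reported, were 2 under upper quartile scaling, 3 under library size only and 0 to 1 without 1 replicate, and further kinesins called lower ranged from 1 to 3 without 1 replicate. Further kinesins called lower were 2 under DESeq2, each other scaling or filter, the replicate block and halved counts. With the replicate block 9 kinesins were higher and 9 lower and the difference of the class medians stayed at −0.13. The labels share only a replicate number, and same-numbered samples had correlated deviations of only −0.012 to 0.023, so they were not taken as pairs. The block removed the calls of KIF5A and KIF25. Calls under 1 CPM rest on few counts and are the least certain.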
